A study of Mus musculus with 6 samples.

Results

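Fibroblast growth factors (FGFs) are secreted ligands, and their receptors are tyrosine kinases that signal largely through the RAS and MAP kinase route. In the early lower jaw, oral epithelium is a known source of FGF8 and FGF9, whereas FGF10 is made by mesenchyme beneath it, and each layer carries receptors for the signals of the other. The genes described here are 9 of the 21827 genes listed for each library. They were taken by symbol: the ligand genes Fgf8, Fgf9, Fgf3, Fgf10, Fgf18 and Fgf15 and the receptor genes Fgfr1, Fgfr2 and Fgfr3. Each symbol matched 1 row.

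Polyadenylated RNA was sequenced from distal mandibles (the tip of the lower jaw) dissected from single mouse embryos at stage E10.75 (counted in embryonic days). Of 6 libraries, 3 are labelled mutant (Msx1f/f;Msx2f/f;Rosa26mTmG/+;Hand2-Cre) and 3 are labelled control (Msx1f/+;Msx2f/f;Rosa26mTmG/+;Hand2-Cre), with 1 of each from each of 3 litters. Every embryo thus carried floxed Msx2 on both copies, a Cre recombinase named for Hand2 and 1 copy of the Rosa26 mTmG reporter, which turns recombined cells green, and no group has intact Msx genes. Values are TPM, a transcript abundance corrected for transcript length and scaled to a fixed library total, so levels may be compared between genes. TPM keep no record of read depth, which is unknown for each library.

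The targeted gene goes against the label in litters 2 and 3. Msx1 was at 1.90, 2.61 and 1.99 TPM in the mutant-labelled library of litter 1 and the control-labelled libraries of litters 2 and 3, and at 84.1, 78.8 and 73.3 TPM in their respective littermates. The libraries are therefore given by label and by litter, and within each litter the library with Msx1 under 10 TPM is set beside the one over 50 TPM as a description without a test. The tissue had the defining markers of both layers in every library. Mesenchymal Prrx1, Hand2 and Twist1 were at 140, 210.0 and 157 TPM or more, and epithelial Epcam, Cdh1 and Trp63 at 16.8, 15.3 and 25.6 TPM or more.

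Fgfr1, Fgfr2 and Fgfr3 each have a pair of mutually exclusive exons for the end of the third immunoglobulin domain, known as IIIb and IIIc. IIIb forms are typical of epithelium and bind mesenchymal ligands such as FGF10, and IIIc forms are typical of mesenchyme and bind FGF8 and FGF9. The deposited values are 1 per gene, so they sum both forms. Of the epithelial splicing factor genes known to favour IIIb, Esrp1 was at 10.5 to 15.6 TPM and Esrp2 at 3.91 TPM or more.

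Fgfr2 and Fgfr1 were far above every ligand, and Fgfr3 was below 4 of them. The mean over 6 libraries was 46.5 ± 7.49 TPM (SD, n = 6) for Fgfr2 and 34.5 ± 9.43 TPM (SD, n = 6) for Fgfr1, against 5.42 ± 1.96 TPM (SD, n = 6) for Fgf8, the highest ligand. Fgf10, Fgf9, Fgf18 and Fgfr3 followed at means of 3.39, 2.77, 1.83 and 1.11 TPM, then Fgf15 at 0.212 TPM, and Fgf3 was listed at 0 in all 6 libraries. Fgfr2 exceeded Fgfr1 in 6 of 6 libraries, although their ranges overlap, and the lowest Fgfr1 value (24.7 TPM) exceeded the highest Fgf8 value (9.09 TPM). Fgf8 exceeded Fgf10 in TPM in 6 of 6 libraries, an order that rests on the correction for transcript length. In the comparison table deposited by the authors, the average of normalized counts was 19.8 for Fgf8 and 149 for Fgf10. Fgf10 and Fgf9, Fgf9 and Fgf18, and Fgf18 and Fgfr3 each kept their order in 5 of 6, and their ranges overlapped, so these neighbours did not differ beyond their spread.

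**Figure D1:**
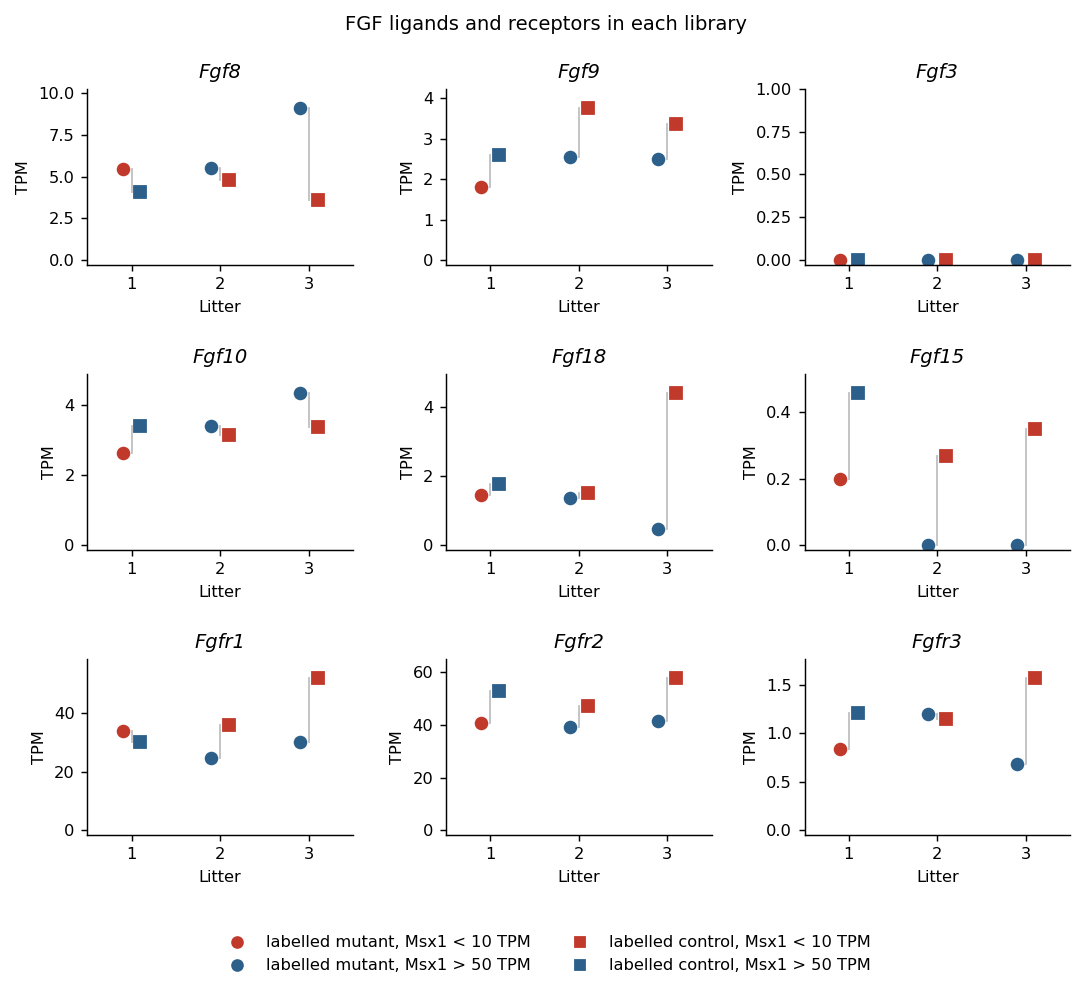
TPM of each of the 9 genes (vertical axis, from 0, scaled per gene) in the 2 libraries of each of 3 litters (horizontal axis). Circles are mutant-labelled libraries and squares the control-labelled ones; red marks Msx1 under 10 TPM, blue over 50 TPM, and grey lines join littermates. Fgfr1 is higher in the red library in all 3 litters and Fgf10 lower.

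Of the 9 genes, 7 reached 1 TPM in at least 3 libraries and were tested, and Fgf15 and Fgf3 did not. The labelled groups were compared with limma on log2(TPM + 1), with p-values adjusted by the Benjamini-Hochberg method over 12152 genes. None of the 7 was called at an adjusted p of 0.05, and neither was any other gene (0 of 12152, 0%). Msx1 itself was not called, at 1.41 ± 1.95 (SE; limma adjusted p = 0.887). Each label holds libraries with Msx1 under 10 TPM and over 50 TPM, so this fit does not compare Msx1 levels. At an unadjusted p under 0.05 there were 2 of the 7, Fgf8 and Fgfr2, where 6.72% of all genes stood. The median log2 difference of the 7, labelled mutant minus labelled control, was -0.36, against -0.06 over all genes tested. In the comparison table deposited by the authors, the same 7 had an adjusted p and none was past 0.05, as against 14 of 14572 genes (0.0961%). That table does not state its direction, so it is read relative to Msx1, which is negative there at -5.19 ± 0.26. By label Msx1 was positive and wide in error, at 1.41 ± 1.95, so the groups of the table are not those of the labels. A positive value stands for a higher level where Msx1 was lower. Only Fgfr1 of the 9 had an unadjusted p under 0.05 in the authors' deposited table, where 1.85% of genes with a p did. The table compares the same embryos as the labelled fit, though grouped otherwise, so the 2 are not independent.

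**Figure D2:**
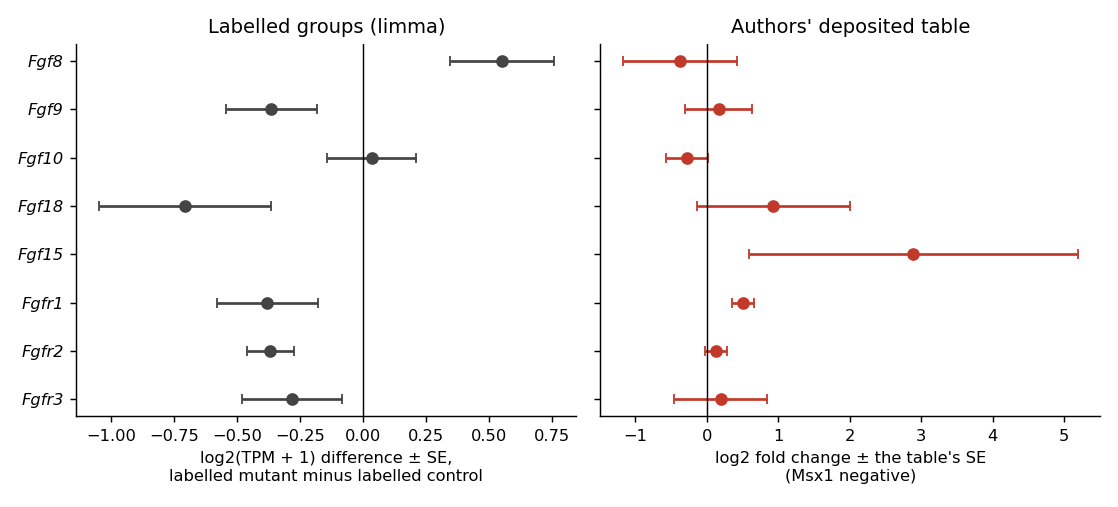
Left, limma difference in log2(TPM + 1), labelled mutant minus labelled control, with its SE (3 libraries per label; Fgf15 was not tested). Right, log2 fold change and standard error from the authors' deposited table, where Msx1 is negative; Fgfr1, at 0.50, has the largest distance from 0 relative to its error.

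Fgf8 encodes the epithelial ligand that the arch needs for mesenchymal survival and patterning (ENSMUSG00000025219, chromosome 19, 45736798 to 45742915, minus strand; all gene positions here are those of GENCODE M21 on GRCm38). It was at 5.45, 5.51 and 9.09 TPM in the mutant-labelled libraries of litters 1, 2 and 3, and at 4.05, 4.82 and 3.58 TPM in the control-labelled ones. All 3 mutant-labelled libraries were above all 3 labelled control, an order held by 2.73% of genes. The limma difference was 0.55 ± 0.21 (SE; adjusted p = 0.714), from means of 6.68 ± 2.09 and 4.15 ± 0.627 TPM (SD, n = 3 each). Set by Msx1, the order was mixed. The library with low Msx1 differed from its littermate by 0.35, -0.16 and -1.14 in log2(TPM + 1) in litters 1, 2 and 3, and the authors' deposited table gave -0.38 ± 0.80. The average of normalized counts behind that value was 19.8 in the authors' deposited table, one of the smallest of the genes described, which limits its precision.

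The highest Fgf8 value, in the mutant-labelled library of litter 3, lies apart from the other 5. The genes whose centred log2(TPM + 1) profile over the 6 libraries was nearest to that of Fgf8 were Gbf1, Eya2 and Pars2, at root mean square differences of 0.11, 0.12 and 0.13, where a flat profile differs by 0.36 and the median of 12151 genes by 0.42. Each was highest in the same library, Gbf1 at 11.4 TPM, Eya2 at 11.6 TPM and Pars2 at 7.70 TPM. They were chosen for likeness to Fgf8, so this shared peak follows from the choice and is no separate observation. Of all genes tested, 11.5% were highest in that library. Gbf1 and Fgf8 lie 410 kb apart on chromosome 19, and Eya2 and Pars2 lie on chromosomes 2 and 4. The summed TPM of 14 epithelial markers in the mutant-labelled library of litter 3 was 190.5. That was the highest sum under the mutant label (176 to 191 TPM), where the control label had 185 to 205 TPM. Its part in the Fgf8 value was not tested.

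Fgf9, the other epithelial ligand (ENSMUSG00000021974, chromosome 14, 58070547 to 58112720, plus strand), had the opposite order by label. It was at 1.82, 2.55 and 2.51 TPM in the mutant-labelled libraries of litters 1, 2 and 3, and at 2.60, 3.76 and 3.36 TPM in the control-labelled ones. The groups did not overlap, with the mutant-labelled libraries below, as was so for 3 of the 7 tested genes and 10.4% of all genes. The difference was -0.36 ± 0.18 (SE; limma adjusted p = 0.727). By Msx1 the low library was lower in litter 1 (-0.35) and higher in litters 2 and 3 (0.42 and 0.31), and the authors' deposited table gave 0.17 ± 0.47.

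Epithelial content bears on both ligands, since in bulk tissue fewer cells of a type and less RNA per cell cannot be told apart. All 14 epithelial markers passed the filter on low values and none was at 0 throughout. Their summed level was 176 to 191 TPM in the mutant-labelled libraries and 185 to 205 TPM in the control-labelled ones. The 2 ranges overlap, but within litters the sum was lower under the mutant label in 3 of 3, as Fgf9 was. Of the 14 markers, 3 (Epcam, Cldn7 and Krt8) were lower in every mutant-labelled library than in every control-labelled one, and 1, Krt14, was higher. The shares of all genes were 10.4% and 2.73%, and the other markers overlapped between the labels. By limma, 65.4% of all genes tested were lower under the mutant label. Epcam, an epithelial adhesion gene, was at 16.8, 17.5 and 18.2 TPM under the mutant label and at 21.5, 22.2 and 20.9 TPM under the control label. Krt14, which encodes a keratin of basal cells, stood at 5.30, 4.17 and 4.43 TPM under the mutant label and at 1.25, 1.68 and 2.24 TPM under the control label, the order opposite to that of Epcam and Fgf9. These 4 were picked out after their values were seen. Ordered by Msx1, the marker sum was 176 to 205 TPM in the low libraries and 177 to 205 TPM in the high ones. The part of these markers in the ligand values was not tested.

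Fgf10, the mesenchymal ligand gene known for branching and bud growth (ENSMUSG00000021732, chromosome 13, 118669791 to 118792115, plus strand), varied least among the ligands. It was at 2.64 and 3.40 TPM in the mutant-labelled and control-labelled libraries of litter 1. The same pair of values was 3.42 and 3.16 TPM in litter 2, and 4.35 and 3.37 TPM in litter 3. The library with low Msx1 was the lower one in 3 of 3 litters, with differences of -0.27, -0.09 and -0.29 in log2(TPM + 1). Of the 7 tested genes 2, Fgf10 and Fgfr1, had 1 direction in all 3 litters (either direction), and 22.7% of all genes did. The highest of the low-Msx1 libraries (3.37 TPM) lay just under the lowest of the others (3.40 TPM), an order that 4.95% of genes had. In the authors' deposited table the log2 fold change was -0.28 ± 0.30 (p = 0.343; adjusted p = 1.00), smaller than its standard error. By label the difference was 0.04 ± 0.18 (SE; limma adjusted p = 0.968).

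Fgf18, a mesenchymal ligand gene of skeletal growth (ENSMUSG00000057967, chromosome 11, 33117430 to 33147400, minus strand), had the widest spread, 9.28-fold between its extremes. It was at 1.46, 1.36 and 0.474 TPM under the mutant label and at 1.76, 1.50 and 4.40 TPM under the control label, in the order of the litters. The spread came from litter 3, whose 2 libraries were the highest and the lowest of the 6, and the other 4 lay between 1.36 and 1.76 TPM. All 3 mutant-labelled libraries were below all 3 labelled control, an order held by 10.4% of all genes. The highest of the former and the lowest of the latter were only 1.46 and 1.50 TPM. The limma difference was -0.71 ± 0.34 (SE; adjusted p = 0.727), and it was -0.36 to -0.91 when each library was left out in turn. Its average of normalized counts was 11.6 in the authors' deposited table, which gave 0.93 ± 1.07.

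Fgf3, a ligand gene later known in dental mesenchyme (ENSMUSG00000031074, chromosome 7, 144838083 to 144844436, plus strand), was listed at 0 in every library, and its mean is 0 in the authors' deposited table, so no comparison was possible. Fgf15, a ligand gene of the pharyngeal region that was put in neither layer (ENSMUSG00000031073), begins 52.1 kb beyond Fgf3 on the same chromosome, at 144896531 to 144900953 (plus strand). It was at 0.200 and 0.458 TPM in the mutant-labelled and control-labelled libraries of litter 1. In litters 2 and 3 it was listed at 0 under the mutant label and was at 0.269 and 0.348 TPM under the control label. All values are below 0.5 TPM, from an average of 2.96 normalized counts in the authors' deposited table, so its fitted 2.89 ± 2.30 there is no measure of size. Markers of pharyngeal endoderm were low too, with 4 of 6 passing the filter and 1 at 0 throughout. Their summed level was lower under the mutant label in 3 of 3 litters, as Fgf15 was, at 6.11 to 9.32 TPM against 8.77 TPM or more under the control label. In litter 1 the sums were close, at 9.32 and 9.54 TPM, and 0 of the 6 markers separated the labels. The part of these markers in the Fgf15 values was not tested.

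Fgfr1 encodes the main receptor of arch mesenchyme (ENSMUSG00000031565, chromosome 8, 25513654 to 25575718, plus strand), and its order followed Msx1 in reverse. In the libraries with low Msx1 it was at 33.9 TPM (labelled mutant, litter 1), 35.9 TPM (labelled control, litter 2) and 52.0 TPM (labelled control, litter 3). In their littermates it was at 30.3, 24.7 and 30.1 TPM. The low-Msx1 library was thus the higher one in 3 of 3 litters, by 1.12-fold, 1.45-fold and 1.73-fold, and the 2 sets of values do not overlap. Sets that did not overlap in that direction were seen in 4.36% of all genes and in 1 of the 7, Fgfr1.

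The authors' deposited table gave Fgfr1 a log2 fold change of 0.50 ± 0.15 (p = 0.00115), the 34th smallest of 17605 p-values. It did not pass adjustment over all genes (adjusted p = 0.491). The mutant-labelled library of litter 1 held 20160 TPM of 5 red blood cell markers against 6171 to 8634 TPM in the other 5. Its part in the Fgfr1 values was not tested. With median-of-ratios scaling the Fgfr1 differences between littermates were 0.27, 0.52 and 0.68, as against 0.16, 0.52 and 0.77 on the log2(TPM + 1) scale. By label Fgfr1 was lower under mutant, at 29.6 ± 4.65 against 39.4 ± 11.3 TPM (SD, n = 3 each), with a difference of -0.38 ± 0.20 (SE; limma adjusted p = 0.729) and overlapping groups. Mesenchymal markers summed to 1054 to 1145 TPM in the low-Msx1 libraries and 1137 to 1174 TPM in the others. The sum was higher in the low-Msx1 library in 1 of 3 litters, litter 3, at 1145 against 1137 TPM, and its part in the Fgfr1 values was not tested.

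**Figure D3:**
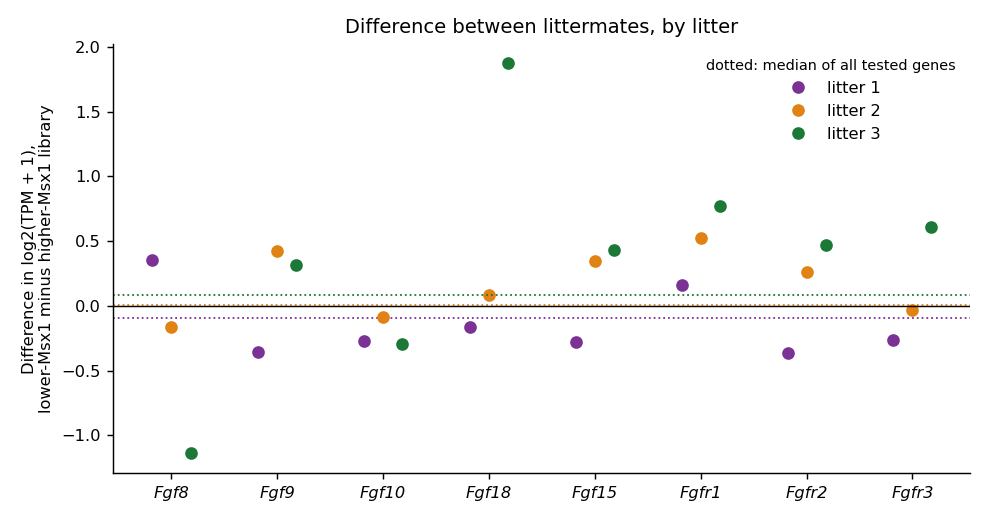
Difference in log2(TPM + 1) between the littermate with Msx1 under 10 TPM and the one over 50 TPM (vertical axis) for 8 genes, 1 point per litter; Fgf3, at 0 throughout, is left out. Dotted lines are the medians of 12152 genes in each litter; Fgfr1 lies above 0 and Fgf10 below 0 in all 3 litters, and Fgf8 and Fgf18 are most spread.

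Fgfr2, whose IIIb form is the epithelial receptor for FGF10 (ENSMUSG00000030849, chromosome 7, 130162451 to 133123350, minus strand), followed the labels rather than Msx1. It was at 40.7, 39.2 and 41.4 TPM in the mutant-labelled libraries of litters 1, 2 and 3, and at 52.8, 47.3 and 57.8 TPM in the control-labelled ones. The groups do not overlap, with the mutant-labelled libraries below, as was so for 10.4% of all genes. The means were 40.5 ± 1.14 and 52.6 ± 5.28 TPM (SD, n = 3 each). The difference of -0.37 ± 0.09 (SE) had the smallest p of the 7 genes (limma adjusted p = 0.669) and was lower under mutant in 3 of 3 litters. Since Msx1 contradicts the labels in litters 2 and 3, this order is not one of Msx1 level. The low-Msx1 library was lower in litter 1 (-0.37) and higher in litters 2 and 3 (0.26 and 0.47), and the authors' deposited table gave 0.13 ± 0.15 (adjusted p = 1.00). The difference between the orders of Fgfr1 and Fgfr2 was not tested. The summed level of 14 epithelial markers was also lower under the mutant label in 3 of 3 litters, with overlapping ranges. The part of these markers in the Fgfr2 values was not tested.

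Fgfr3, a receptor gene known for restraining growth of cartilage and bone (ENSMUSG00000054252, chromosome 5, 33721674 to 33737068, plus strand), lies on the chromosome of Msx1, 4083 kb from it. It was at 0.838 and 1.21 TPM in the mutant-labelled and control-labelled libraries of litter 1, 1.20 and 1.15 TPM in litter 2, and 0.681 and 1.57 TPM in litter 3. The low-Msx1 library was thus lower in litters 1 and 2 and higher in litter 3, by -0.27, -0.03 and 0.61. The limma difference by label was -0.28 ± 0.20 (SE; adjusted p = 0.763), and the value in the authors' deposited table was 0.19 ± 0.65.

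The control-labelled library of litter 3 held the highest value of all 3 receptor genes and of Fgf18, 4 of the 8 detected genes, and the lowest of Fgf8. Its littermate held the highest Fgf8 and Fgf10. In log2(TPM + 1), litter 3 gave the widest gap between littermates in 6 of the 7 tested genes, all but Fgf9. For Fgf10 it was close to that of litter 1 (-0.29 and -0.27). The shares of all genes with these orders were not computed, so they are not read as a trait of the FGF genes. By Msx1, Fgf8, Fgf9, Fgf18, Fgfr2 and Fgfr3 had mixed directions among litters. With litters 1 and 2 alone, Fgfr1, Fgf10 and Fgfr3 each have 1 direction (Fgfr3 lower in the low-Msx1 library), and Fgf8, Fgf9, Fgf18 and Fgfr2 differ in sign between these 2 litters.

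A list of other genes of the pathway was taken as well. Of its 40 genes, 25 passed the filter: 4 of 16 ligands, 3 of 6 receptors and co-receptors, 7 of 7 adaptors and 11 of 11 targets and feedback genes. Fgf4, Fgf6, Fgf16 and Fgf21 were listed at 0 throughout, and 10 of the 16 ligands stayed under 1 TPM in every library. The most abundant gene listed as a ligand was Fgf13, though it encodes an intracellular FGF homologue, with a mean of 5.01 TPM. Fgf1 followed at 1.86 TPM. Among receptors and co-receptors the membrane proteins Flrt2 and Flrt3, known to bind FGF receptors, had means of 68.0 and 44.1 TPM, whereas Fgfr4 did not exceed 0.340 TPM.

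No gene of the 25 was called between the labels by limma. An unadjusted p under 0.05 was held by 2 of the 25, Flrt2 and Etv1, and by 6.72% of all genes tested. Etv1 was picked out after its values were seen. Of the 25, 5 were higher and 20 lower under the mutant label, where 65.4% of all genes tested were lower, with a median of -0.06, equal to that of all genes to 2 decimals. In the authors' deposited table, 0 of 30 with an adjusted p were called, 11 were positive and 19 negative, and the median log2 fold change was -0.10 against 0.003 over all genes. The one unadjusted p under 0.05 was that of Flrt2, at 0.25 ± 0.12 (adjusted p = 1.00), where 1.85% of genes with a p had one. Flrt2 was at 67.8, 72.5 and 81.3 TPM in the libraries with low Msx1 of litters 1, 2 and 3 and at 67.5, 61.4 and 57.3 TPM in their littermates, so that in litter 1 the 2 were nearly equal.

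Between littermates, 4 of the 25 had 1 direction in all 3 litters, as did 22.7% of all genes: 3 were higher in the low-Msx1 library and 1 was lower, Fgf1. It was at 1.70, 0.732 and 0.932 TPM against 3.27, 2.30 and 2.24 TPM. The authors' deposited table put Fgf1 at -1.29 ± 0.86 (adjusted p = 1.00). Of the 11 target and feedback genes, 1 had the same direction in all 3 litters (22.7% of all genes), and 10 were mixed. Etv5, a transcription factor gene induced by FGF, was at 38.4 and 45.0 TPM in the mutant-labelled and control-labelled libraries of litter 1, 35.7 and 34.0 TPM in litter 2, and 25.0 and 37.8 TPM in litter 3. Spred2, an inhibitor of the RAS route, ranged from 28.8 to 38.4 TPM. Ptpn11 and Shc1, from the class listed as adaptors, ranged from 29.7 to 36.5 TPM and from 20.5 to 30.7 TPM. The mutant-labelled library of litter 3, which held the highest Fgf8, was also the highest for 5 of the 11 targets and feedback genes (Etv4, Dusp6, Spry2, Spry4 and Spred3), a pattern looked for after the values were seen, and for 11.5% of all genes tested. Etv4, like Etv5 an FGF-induced transcription factor gene, was at 8.03 TPM there, 2.93 TPM in its littermate and 4.16 to 5.09 TPM in the other 4. Spred3 was highest there only narrowly, at 4.64 TPM against 4.60 TPM in the control-labelled library of litter 1. Etv5 and Spred2 were instead lowest in the mutant-labelled library of litter 3, at 25.0 and 28.8 TPM. A link of these genes to the Fgf8 value was not tested.

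**Figure D4:**
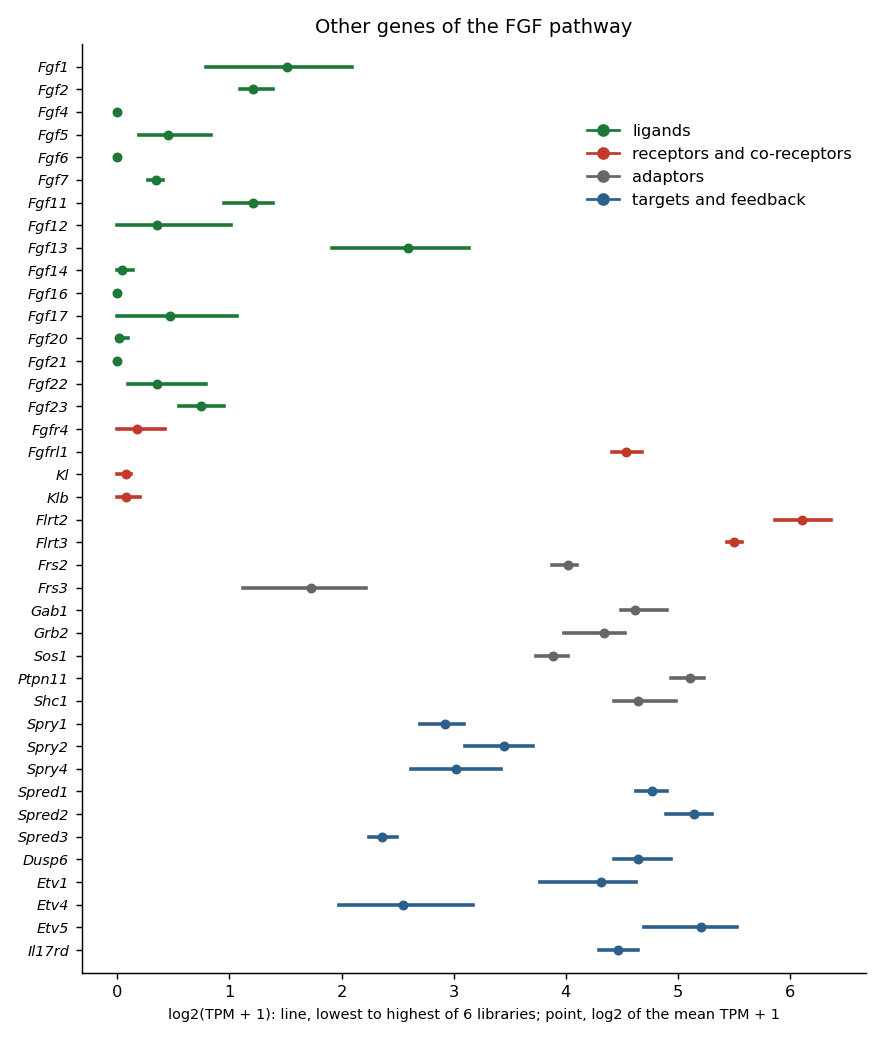
Level of 40 other FGF pathway genes in log2(TPM + 1) (horizontal axis), coloured by class; lines run from the lowest to the highest of 6 libraries and points mark the log2 of the mean TPM + 1. Most ligands lie near 0, while adaptors and targets lie mostly above 2.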

How the data were processed

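The authors deposited TPM for 21827 genes in each of 6 libraries, and 1 comparison table. Per the submitters' processing notes Salmon 1.5.2, DESeq2 and mm10 were used; settings and annotation: not given in the sources used here. Per the file headers the table holds a base mean (a signal, in DESeq2 output the mean of normalized counts), a log2 fold change with its standard error, a Wald score, and unadjusted and adjusted p-values; a missing adjusted p was left missing.

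The 12152 genes that reached 1 TPM in 3 or more libraries were fitted across all genes with limma 3.58.1 in R 4.3.3 (trend, robust) on log2(TPM + 1), and p-values were adjusted over all of them at 0.05. A fold change on this scale understates changes of low genes. P-values reflect the spread of 3 embryos per label, and each label mixes low and high Msx1. The fit was tested on simulated data. No pair of libraries was identical (Pearson r of log2(TPM + 1) across genes 0.988 to 0.991). The design text pairs littermates; deviations from group means correlated at -0.05, -0.03 and -0.03 within litters. Receptor exon sequences are not reported here.

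The 9 genes, the lists and the tests were chosen with earlier results of these data known. Named were all 9, Msx1, layer markers, the 2 most abundant genes of each pathway class, any gene past the threshold, and the 3 nearest profiles to Fgf8.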

Additional observations from a re-analysis of the deposited data

How the results depend on the processing

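No FGF ligand or receptor gene was called between the labels under any setting run: a pseudocount of 0.1, no filter, a mean of at least 5 TPM (which leaves Fgf8, Fgfr1 and Fgfr2), 2 scalings, no robust moderation, the replicate block (litter as a paired term, 0 genes higher and 0 lower) and leaving out each library. Omitting 1 library at a time gave 0 to 1 call in either direction: Gm5244 (higher) when the control-labelled library of litter 1 was omitted, and Rpl29 (lower) when its littermate was. Over these settings the Fgfr2 difference was -0.44 to -0.30 (adjusted p 0.326 to 0.918), that of Fgfr1 -0.55 to -0.16 and that of Fgf8 0.34 to 0.66. A pseudocount of 0.1 moved Fgf18 from -0.71 to -1.12 and Fgfr3 from -0.28 to -0.51, and in litter 3 by Msx1 from 1.87 to 2.97 and from 0.61 to 1.10. Fgf10 ranged from -0.10 to 0.17, and turned negative when the mutant-labelled library of litter 3 was omitted; the cause was not tested. The deposited table counts 1 of the genes at an unadjusted p under 0.05, against 0 adjusted. The number of genes with 1 direction in all 3 litters stayed at 2 under both scalings and the other pseudocount. Median-of-ratios scaling moved the median of all genes by less than 0.1 between the labels (-0.06 to 0.002).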
